A study of Drosophila melanogaster with 18 samples.

Results

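Reproductive ovaries of the inbred line LP (low plasticity) were compared with those of the inbred line HP (high plasticity), both from flies kept at 12 °C. The comparison used 6 of the 18 libraries of the series, 3 of LP and 3 of HP, chosen by their labels. The labels give both lines as wild type, describe the flies as persistently reproductive at 12 °C, and call the libraries biological replicates. They give the tissue as ovary of stages 1 to 7. Each line is a single inbred genotype, so the comparison sets 1 genotype against 1 other. The age of the 12 °C flies is not given in the labels. The other 12 libraries came from diapause ovaries at 12 °C and from ovaries of 28-day-old age controls at 25 °C, again 3 for each line. They allowed the line difference to be measured in each of those states, in libraries that the reproductive comparison did not use.

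Reproductive diapause is a hormonally controlled arrest of egg production that fruit flies can enter in the cold, and lines differ in how readily they do so. Flies that do not arrest go on making egg chambers, each with an oocyte, its nurse cells and an epithelium of follicle cells. Follicle cells take part in yolk supply, then secrete the vitelline membrane, and last of all the chorion, while muscle ensheathes the strings of egg chambers. In these bulk libraries, fewer cells of a type and less RNA per cell cannot be told apart.

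The reproductive libraries held 17216067 to 21333160 counts each. All carried the markers that define ovary: the germline helicase gene vas stood at 291 to 300 CPM (counts scaled to a common library size by TMM) in LP and 238 to 246 CPM in HP, and osk, otu and the follicle and escort cell gene tj were at similar levels in both lines. The single markers checked for blood, nerve and fat body were low or absent. The haemocyte gene Hml reached 0.599 to 1.55 CPM in LP and 1.84 to 2.25 CPM in HP, the neuronal gene elav 2.89 to 3.98 CPM in LP and 2.89 to 5.38 CPM in HP, and the fat body gene Lsp2 at most 0.412 CPM. These do not show that such cells were absent. The wider fat body list summed to 713 to 809 CPM in LP and 834 to 843 CPM in HP. Of its 10 tested genes 3 were higher in LP (1 to 3 without 1 library) and 2 lower (50.0% called). Muscle was present, with Mhc at 97.0, 151 and 130 CPM in LP and 200, 199 and 182 CPM in HP. The first principal component of the 6 libraries held 73% of the variance and separated LP from HP.

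Of 9037 genes tested, 3174 (35.1%) differed between LP and HP reproductive ovaries at an adjusted p under 0.05 in edgeR's quasi-likelihood test, 1666 higher in LP (18.4%) and 1508 lower (16.7%). Most differences were small. The median absolute log2 fold change of the called genes was 0.42, and 61.9% of them were under 1.5-fold. Over 2-fold stood 444 higher and 319 lower genes (8.44% of those tested), over 4-fold 221 and 132, and over 16-fold 64 and 40. The 3 LP libraries did not overlap the 3 HP libraries in 3100 of the called genes (97.7%), against 53.8% of all genes tested. The median log2 fold change over all genes, LP over HP, was 0.01.

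**Figure D1:**
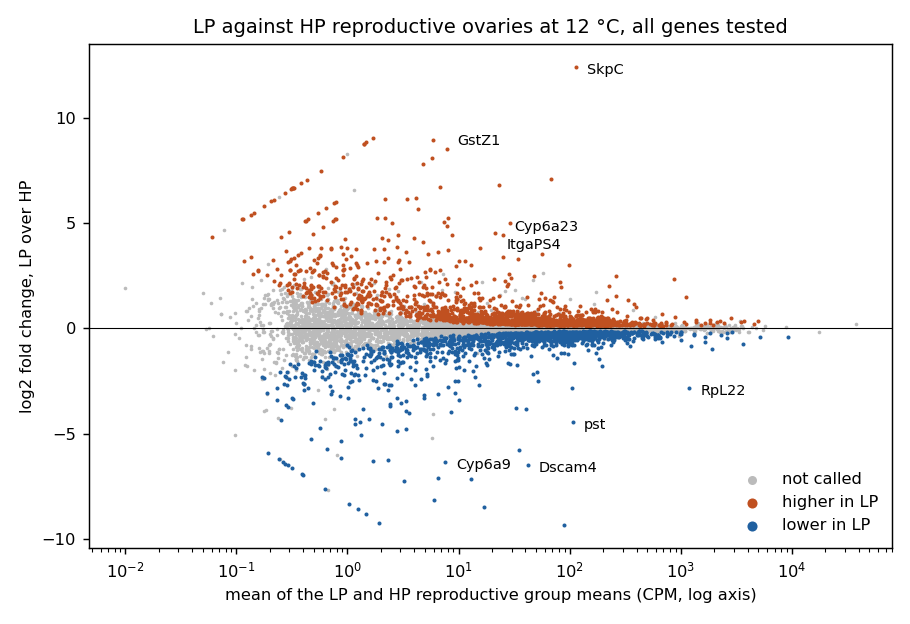
Each point is 1 of the 9037 genes tested. The x axis is the mean of the LP and HP reproductive group means (CPM, log axis) and the y axis the log2 fold change, LP over HP; coloured points passed edgeR's test. Called genes lie on both sides of 0 at all levels, and SkpC stands highest at 12.40.

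The largest differences were genes with many counts in 1 line and next to none in the other. SkpC (X, 19816072 to 19816700), a member of the SKP1 family whose founder belongs to SCF ubiquitin ligases, had 195, 238 and 253 CPM in LP and 0, 0.0969 and 0 CPM in HP. LP was far above HP in every library. Summed over 3 libraries these were 12821 counts in LP and 2 in HP, a ratio of 6440 with a 95% counting interval of 1780 to 53200. Its fitted log2 fold change of 12.40 (SE 0.31, adjusted p = 1.1e-14), like that of other genes with so few counts, depends on the prior count of the fit. It ran from 11.9 to 15.09 over the fits that left out 1 library, so the SE understates its uncertainty. GstZ1 (3R, 9455517 to 9456546), a zeta-class glutathione transferase, had 14.9, 17.4 and 14.6 CPM in LP and 0, 0.0969 and 0 CPM in HP, a ratio of 438 (counting interval 121 to 3620). CrzR (3L, 12339116 to 12351544), the receptor of the neuropeptide corazonin, had 6.59 to 7.16 CPM in LP and at most 0.163 CPM in HP.

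Other genes were higher in LP from a measurable HP level. ItgaPS4 (2R, 15258761 to 15262873), an integrin alpha subunit, had 42.5, 42.5 and 38.4 CPM in LP and 2.12, 1.89 and 1.30 CPM in HP (log2 fold change 4.52, SE 0.14, adjusted p = 1.8e-15). The sodium channel auxiliary subunit tipE (3L, 4188499 to 4193788) had 16.7, 15.0 and 14.1 CPM in LP and 0.544, 0.436 and 0.592 CPM in HP (4.86, SE 0.23, adjusted p = 1.9e-12). Ir68a, an ionotropic receptor known from moisture sensing, had 7.14 to 8.57 CPM in LP and 0.194 to 0.592 CPM in HP. None of these genes overlapped between the lines, which was a condition for naming them.

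In the other direction, Dscam4 (3L, 8238647 to 8282398), a cell adhesion protein of the immunoglobulin family, had 0.659, 0.817 and 1.29 CPM in LP and 84.6, 86.9 and 76.6 CPM in HP (log2 fold change −6.46, SE 0.18, adjusted p = 1.6e-15). The gene pst (3L, 7357275 to 7360263), known for its part in resistance to Drosophila C virus, had 8.45, 9.14 and 10.4 CPM in LP and 196, 216 and 201 CPM in HP (−4.45, SE 0.08, adjusted p = 5.7e-19). Both groups were tight and wide apart. Amt (3R, 15247163 to 15249137), an ammonium transporter, had 0.0599, 0.051 and 0 CPM in LP and 5.55, 5.42 and 8.16 CPM in HP. Over the 3 libraries HP had 175 times the level of LP (2 counts in LP, 352 in HP, counting interval 48.2 to 1450). Tsf1 (X, 18387084 to 18390344), a transferrin that binds iron, varied within LP, at 2.88, 4.08 and 8.76 CPM, and stood at 76.8, 77.5 and 71.9 CPM in HP (−3.83, SE 0.40, adjusted p = 9.9e-06). Lower in LP were also Cubn2, related to the endocytic receptor cubilin (−4.01, SE 0.37), euc (−3.92, SE 0.38) and CanB, a regulatory subunit of the phosphatase calcineurin (−3.37, SE 0.28).

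**Figure D2:**
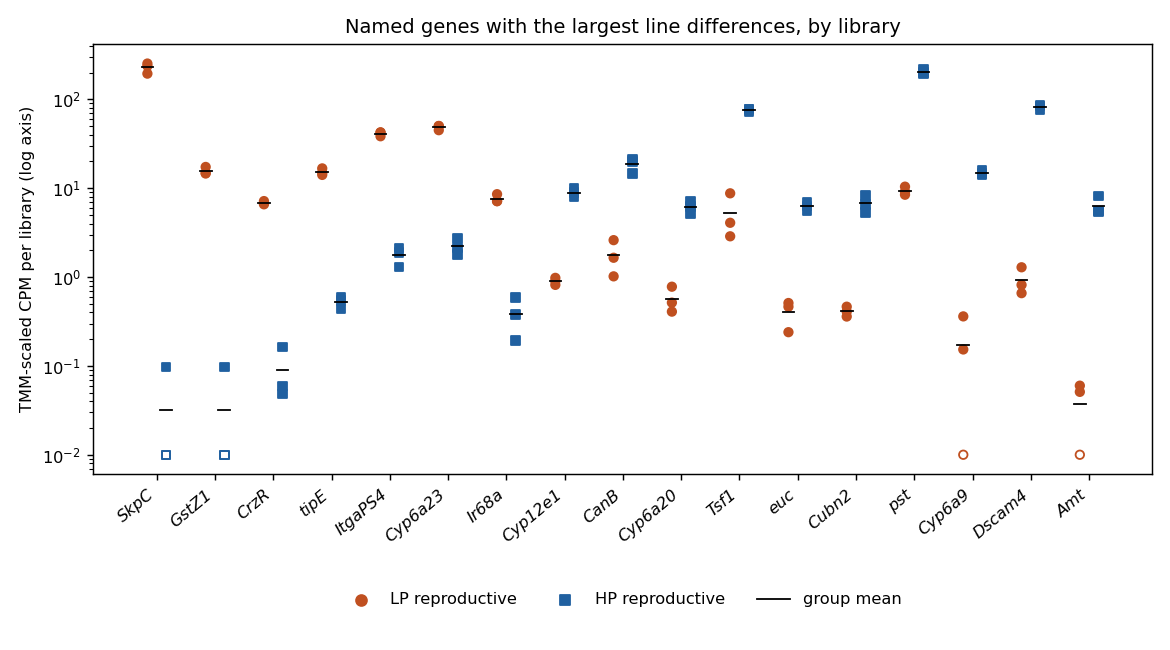
TMM-scaled CPM (log axis) in each LP (circles, left) and HP (squares, right) reproductive library for genes of known name with the largest differences, with the group mean as a bar. Open symbols at the foot of the axis are libraries at 0. The lines do not overlap in any gene shown, which was a condition for naming these genes. SkpC has 195 to 253 CPM in LP and at most 0.0969 CPM in HP.

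Near absence in 1 line, a mean under 0.1 CPM, was found for 80 called genes in HP and 44 in LP. Most were low in the other line too: 6 reached 5 CPM in LP and 4 reached 5 CPM in HP. Besides the genes above, CG13532 had 9.79 to 13.5 CPM in LP (637 counts in LP, 2 in HP) and CG11052 had 11.1 to 12.8 CPM in LP (660 counts in LP, 1 in HP). CG17470 had 9.24 to 9.89 CPM in LP and 2 counts in HP, and kn, a transcription factor of the COE family, 3.89 to 4.59 CPM in LP and 3 counts in HP. In each of these genes all LP libraries were above all HP libraries, which a mean under 0.1 CPM in HP made nearly certain.

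Near absent in LP were lncRNA:CR44845 (2L, 10208741 to 10209786), at 0.18, 0 and 0.103 CPM in LP and 30.5, 34.5 and 36.0 CPM in HP, and CG11825, at 0.0515 to 0.153 CPM in LP and 12.5 to 13.2 CPM in HP. Fife, a scaffold of presynaptic active zones, had 3 counts in LP and 259 in HP, where it stood at 4.46 to 4.84 CPM. With no count in LP, CG12164 was at least 71.4-fold lower and CG42750 at least 54.4-fold lower in LP, with 3 summed counts taken as the floor for LP. The calls of CG31681 and CG6409 rested on HP replicate 3. CG31681 had 0, 0.051 and 0.0515 CPM in LP and 0, 0 and 35.7 CPM in HP, and without HP replicate 3 its log2 fold change was 2.71 (adjusted p = 0.74). CG6409 had 9.76 CPM in HP replicate 3 and at most 0.163 CPM in the other 5 libraries, and its log2 fold change ran from −6.87 to −1.68 over the fits that left out 1 library.

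Families of enzymes that modify foreign compounds held some of the genes with the largest differences, in both directions. These are the cytochromes P450, which oxidise substrates, the glutathione transferases, which conjugate them to glutathione, and the UDP-glycosyltransferases, which add a sugar. Of 29 glutathione transferases tested, 16 were higher in LP and 6 lower (75.9% called against 35.1% of all genes, median 0.69), 8 and 2 of them over 2-fold. GstE6 (2R, 18406011 to 18406761) averaged 99.5 ± 1.69 CPM in LP and 39.9 ± 1.36 CPM in HP (SD, n = 3 each; log2 fold change 1.32, SE 0.08, edgeR adjusted p = 1.4e-10). GstD1, the most abundant of those named here, had 297, 317 and 321 CPM in LP and 173, 155 and 166 CPM in HP (0.92, SE 0.07, adjusted p = 2.7e-09). GstE14, which in flies takes part in ecdysone synthesis, was lower in LP, at 4.08 to 5.03 CPM, than in HP, at 13.2 to 17.4 CPM (−1.82, SE 0.16, adjusted p = 3.3e-08; named after its values were seen).

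Of 53 cytochrome P450 genes, 7 were higher in LP and 13 lower (median −0.15), 37.7% in all and so near the share over all genes; 4 and 6 of them were over 2-fold. A run of neighbouring Cyp6a genes on 2R moved in opposite directions. Cyp6a23 (2R, 14875829 to 14877654) had 50.2, 50.1 and 45 CPM in LP and 2.72, 1.79 and 2.13 CPM in HP (log2 fold change 4.45, SE 0.13, adjusted p = 4.6e-16). Close to it, Cyp6a9 (2R, 14879356 to 14881372), had 0, 0.153 and 0.361 CPM in LP and 15.9, 14.7 and 14.1 CPM in HP (−6.33, SE 0.33, adjusted p = 8.1e-12). Cyp6a20 (2R, 14882118 to 14884046) had 0.408 to 0.779 CPM in LP and 5.21 to 7.19 CPM in HP (−3.46, SE 0.26, adjusted p = 2.7e-09). Outside this run, Cyp12c1 had 14.3 to 15.4 CPM in LP and 0.726 to 1.83 CPM in HP, and Cyp12e1 0.817 to 0.979 CPM in LP and 8.0 to 9.88 CPM in HP. Among 19 UDP-glycosyltransferases 5 were higher and 3 lower in LP (42.1% called, median 0.18), 4 and 2 of them over 2-fold. Ugt35A1 (3R, 11170817 to 11172664) had 47.4, 45.2 and 44.8 CPM in LP and 3.43, 3.68 and 5.92 CPM in HP (3.41, SE 0.20, adjusted p = 3.6e-10). How reads shared by near-identical family members were counted, and whether line-specific sequence differences cost reads, was not stated and not tested, so levels within these families are uncertain.

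In the fit of all libraries most eggshell genes called were higher in LP, with wide spread between libraries. All 7 vitelline membrane genes tested had a positive log2 fold change and 5 were called (71.4% against 35.1% of all genes, median 1.98). Vm26Aa (2L, 5959596 to 5960340), a structural protein of that layer, had 1366, 1895 and 1633 CPM in LP and 686, 461 and 608 CPM in HP (1.48, SE 0.35, adjusted p = 0.0056). Vml had 301, 453 and 328 CPM in LP and 112, 73.0 and 87.0 CPM in HP (1.99, SE 0.54, adjusted p = 0.013), and psd, needed for the vitelline membrane to form, 112, 170 and 116 CPM in LP and 42.5, 27.7 and 31.1 CPM in HP (1.98, SE 0.47, adjusted p = 0.0063). The lines did not overlap in these genes. Vm26Ab, at 435, 535 and 528 CPM in LP and 454, 353 and 436 CPM in HP, did overlap and was not called (0.27, SE 0.31, adjusted p = 0.55). Leaving out 1 library left 2 to 5 of the 7 called; it was 2 without HP replicate 2 and 3 without LP replicate 2, HP replicate 1 or HP replicate 3, and psd and Vm26Aa were called in each such fit.

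Of 22 chorion and other eggshell genes, which include psd, 10 were higher in LP and 3 lower (59.1% called against 35.1% of all genes, median 1.91). The chorion genes are amplified and transcribed in follicle cells of egg chambers older than those the tissue label names. Cp19 (3L, 8729865 to 8730604) had 48.0, 10.6 and 110 CPM in LP and 0.926, 2.13 and 2.19 CPM in HP (log2 fold change 5.0, SE 0.93, adjusted p = 0.0012). Its neighbour Cp18 (3L, 8726791 to 8727613) had 19.9, 5.15 and 383 CPM in LP and 1.20, 1.16 and 0.592 CPM in HP (7.08, SE 2.14, adjusted p = 0.022), and Cp16 had 14.7, 2.65 and 121 CPM in LP and 0, 0.387 and 0.887 CPM in HP. LP replicate 3 was highest and LP replicate 2 lowest in each of the 3 genes, and no HP library reached the lowest LP library. Cp38 went with the libraries more than with the line, at 187, 33.9 and 470 CPM in LP and 4.30, 13.2 and 289 CPM in HP, where replicate 3 stood apart; it was not called (1.18, SE 1.17, adjusted p = 0.47; named after its values were seen).

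The number of eggshell genes called higher depended on single libraries. It was 5 of 22 without LP replicate 3, 4 without HP replicate 1, 3 without HP replicate 2 and 8 to 10 without each other library. With only the 6 reproductive libraries fitted it was 5. The number called lower was 3 in each of these fits, so that without HP replicate 2 the directions were even. Cp19 and ndl, a protease of the egg's dorsoventral axis made by follicle cells, were called in all 6 fits that left out 1 library. Cp18 was called in 2 of them and Cp16 in 4. Lower in LP were fs(1)M3, at 585, 491 and 533 CPM in LP and 810, 841 and 840 CPM in HP (−0.63, SE 0.09, adjusted p = 1.8e-05), fs(1)N (−0.27, SE 0.07) and clos (−0.37, SE 0.08), whose products lie in the vitelline membrane and act in patterning of the embryo's ends. The last pair was named after its values were seen.

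Yolk genes differed less. Yp1 (X, 10053811 to 10055498), a yolk protein, had 723, 856 and 942 CPM in LP and 561, 484 and 531 CPM in HP (log2 fold change 0.68, SE 0.20, adjusted p = 0.017); its call was lost without LP replicate 3 (0.59, adjusted p = 0.063) and without HP replicate 2. Yp2 had 3578, 3745 and 4270 CPM in LP and 3004, 2872 and 3141 CPM in HP and missed the threshold (0.36, SE 0.17, adjusted p = 0.11), as did Yp3 (0.55, SE 0.22, adjusted p = 0.075). In all 3 genes each LP library was above each HP library. The yolk receptor gene yl stood at 3531 to 3784 CPM in LP and 3425 to 3810 CPM in HP, with a log2 fold change of 0.00 (SE 0.08).

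**Figure D3:**
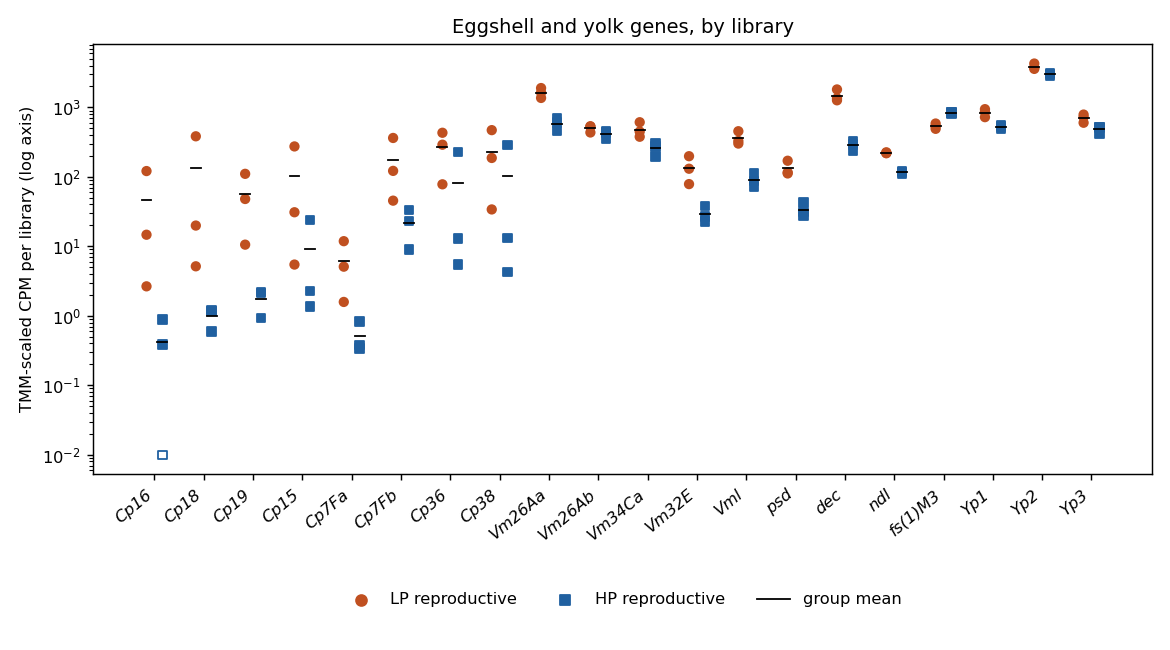
TMM-scaled CPM (log axis) of eggshell and yolk genes in each LP (circles, left) and HP (squares, right) reproductive library, with the group mean as a bar; the open symbol at the foot is a library at 0. Chorion genes on the left spread widely among libraries of 1 line, with Cp18 at 5.15 to 383 CPM in LP, while ndl and the yolk genes are tight.

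Germline genes differed by small amounts in both directions. Of 25 genes of germline stem cells and the early germline, 4 were higher in LP and 7 lower (44.0% called against 35.1% of all genes, median −0.09). The helicase gene vas had 300, 300 and 291 CPM in LP and 240, 246 and 238 CPM in HP (log2 fold change 0.30, SE 0.04, adjusted p = 3.2e-05). The differentiation factor bam (3R, 25243039 to 25245109), which drives daughters of stem cells into cyst divisions, had 46.1, 50.8 and 45.9 CPM in LP and 29.3, 23.5 and 29.7 CPM in HP (0.79, SE 0.11, adjusted p = 1.4e-05). Both genes were higher in every LP library. Maternal pgc, a transcriptional repressor of primordial germ cells, had 195, 215 and 207 CPM in LP and 112, 103 and 106 CPM in HP (0.94, SE 0.08, adjusted p = 1.3e-08). The translational repressors pum (−0.54, SE 0.07, adjusted p = 1.2e-05) and bru1 (−0.38, SE 0.05, adjusted p = 1.2e-05) were lower in LP, while nanos, at 187, 167 and 194 CPM in LP and 165, 140 and 166 CPM in HP, was higher in LP in each library and missed the threshold (0.22, SE 0.10, adjusted p = 0.09).

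Of 26 oocyte patterning and maternal genes 5 were higher in LP (3 without HP replicate 2) and 6 lower. Called were 42.3% of them and 38.9% of the early follicle and escort cell genes below, against 35.1% of all genes. The bicoid mRNA localisation factor exu had 528, 485 and 529 CPM in LP and 383, 345 and 383 CPM in HP (log2 fold change 0.47, SE 0.07, adjusted p = 5e-05), while osk, the organiser of germ plasm, had 475, 427 and 453 CPM in LP and 486, 487 and 506 CPM in HP and missed the threshold (−0.13, SE 0.08, adjusted p = 0.21). Among 18 genes of early follicle and escort cells 2 were higher and 5 lower (median −0.14), with 3 lower without LP replicate 1, LP replicate 2, LP replicate 3 or HP replicate 2. The Notch ligand gene Delta had 82.0, 69.8 and 69.4 CPM in LP and 104, 118 and 107 CPM in HP (−0.57, SE 0.11, adjusted p = 0.00062), and ct, a homeodomain factor of dividing follicle cells, had 28.6, 23.7 and 21.0 CPM in LP and 34.3, 43.3 and 45.3 CPM in HP (−0.75, SE 0.18, adjusted p = 0.0052). The lines did not overlap in either gene. The ligand Wnt4 was higher in LP from low levels, at 2.19 to 2.73 CPM in LP and 0.769 to 1.60 CPM in HP (1.12, SE 0.28).

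Fewer genes of cell division were called than the 35.1% over all genes. Of 57 mitotic genes 12 were higher and 4 lower (28.1% called, median 0.07). The higher count was 8 without LP replicate 2 and 5 without HP replicate 2, and the lower count 2 in each fit without 1 library but that without HP replicate 2. One member, fog, is folded gastrulation and no mitotic gene. The cohesin gene vtd had 75.1, 79.8 and 70.7 CPM in LP and 55.3, 50.7 and 51.3 CPM in HP (log2 fold change 0.52, SE 0.08, adjusted p = 4.2e-05), and cana, related to the kinesin CENP-E, had 143, 132 and 136 CPM in LP and 176, 173 and 188 CPM in HP (−0.39, SE 0.07). DNA replication had 5 of 41 genes higher and 1 lower (14.6% called), but 3 higher without LP replicate 2 or HP replicate 3 and 1 higher without HP replicate 2; the lower gene lost its call without LP replicate 1, LP replicate 3 or HP replicate 2. RnrL, a subunit of ribonucleotide reductase, stood at 172 to 194 CPM in LP and 145 to 153 CPM in HP (0.30, SE 0.07). In diapause ovaries both lists were lower in LP more often than higher, 11 against 4 mitotic and 10 against 2 replication genes. Their medians there were near 0, at −0.03 and −0.10. The direct test between reproductive and diapause ovaries called 0 of 9037 genes, and a comparison of call counts does not test such a difference. With 3 libraries per group, 0 calls do not show that the line difference was the same in both states.

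The piRNA pathway, which silences transposons in the ovary by small RNAs, had 9 of 37 genes higher in LP and 11 lower (54.1% called against 35.1% of all genes, median −0.11). BoYb (3L, 22901912 to 22905470), a Tudor-domain factor of the pathway, had 42.7, 45.3 and 41.6 CPM in LP and 17.2, 16.9 and 17.8 CPM in HP (log2 fold change 1.32, SE 0.09, adjusted p = 2.8e-10). The ping-pong Argonaute AGO3 had 61.6, 67.4 and 63.3 CPM in LP and 88.8, 93.4 and 88.0 CPM in HP (−0.49, SE 0.06, adjusted p = 3.9e-06), and Gasz, a mitochondrial anchor of piRNA processing, was higher in LP (0.42, SE 0.06, adjusted p = 7.5e-06). No piRNA gene but BoYb passed 2-fold in either direction.

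DNA damage and repair genes were more often lower in LP, 15 of 42, than higher, 5 (median −0.09). Called were 47.6% of them and 54.2% of the meiotic genes below, against 35.1% of all genes. Without any 1 library 9 to 12 were lower and 2 to 4 higher; the lower count was 9 without HP replicate 3, and the higher count 2 without LP replicate 1, LP replicate 3 or HP replicate 1 and 3 without HP replicate 2 or 3. Blm (3R, 11736810 to 11741783), the RecQ helicase of Bloom syndrome in humans, had 51.0, 53.8 and 52.8 CPM in LP and 120, 120 and 109 CPM in HP (log2 fold change −1.15, SE 0.10, adjusted p = 7.1e-08). Fancl, the ubiquitin ligase of the Fanconi pathway, had 4.79, 4.70 and 5.41 CPM in LP and 13.7, 13.1 and 15.9 CPM in HP (−1.52, SE 0.14, adjusted p = 7.8e-08). The end-binding subunit rad50 was also lower (−0.50, SE 0.06, adjusted p = 4.9e-06). Among 24 genes of meiotic recombination and synapsis 5 were higher and 8 lower (3 higher without LP replicate 3 or HP replicate 3; 5 lower without LP replicate 2 or HP replicate 1 and 4 without HP replicate 2), with mei-W68, the homologue of the double-strand-break enzyme Spo11, at 3.67 to 4.25 CPM in LP and 1.42 to 1.63 CPM in HP (1.40, SE 0.23), and corolla, a synaptonemal complex protein, at 6.28 to 7.06 CPM in LP and 10.7 to 11.2 CPM in HP (−0.73, SE 0.12).

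Chromatin regulators that were called were mostly lower in LP, by small factors, except the demethylases. Called were 26.5% of the Polycomb, trithorax and Brahma group, 22.2% of histone methyltransferases and 23.1% of demethylases, fewer than the 35.1% of all genes. For heterochromatin genes it was 37.0%. In the Polycomb, trithorax and Brahma group 0 of 34 genes were higher and 9 lower (median −0.07), with 5 lower without LP replicate 2 or HP replicate 2. The remodelling subunit Bap111 had 68.3, 74.2 and 72.8 CPM in LP and 117, 108 and 109 CPM in HP (log2 fold change −0.63, SE 0.08, adjusted p = 2.8e-06). The Polycomb genes ph-d (−0.63, SE 0.12) and ph-p (−0.53, SE 0.13) are neighbouring near-copies whose reads the counting could have split. Of 27 histone methyltransferases and partners 1 was higher, Wdr82 (0.33, SE 0.08, adjusted p = 0.0044), and 5 were lower, among them the arginine methyltransferase Art4 (−0.22, SE 0.05, adjusted p = 0.0013) and the core subunit wds (−0.29, SE 0.05, adjusted p = 0.00032). Of 13 demethylases and partners Kdm3 (0.40, SE 0.09) and Kdm4A (0.23, SE 0.08, adjusted p = 0.031) were higher and the corepressor CoRest (−0.34, SE 0.06) was lower. The 5 lower histone methyltransferases and partners were 3 without LP replicate 3 or HP replicate 1 and 2 without LP replicate 2 or HP replicate 2. The call of Kdm4A was lost in 5 of 6 fits that left out 1 library. Among heterochromatin genes 3 of 27 were higher and 7 lower (1 higher without LP replicate 3; 4 lower without LP replicate 3 or HP replicate 1, 2 or 3), with Dsp1 at −0.64 (SE 0.09) and HP4 at −0.60 (SE 0.12).

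Proteasome genes, whose products form the main protease for ubiquitin-tagged proteins, were higher in LP in most members, by small amounts. Of 31 tested, 24 were higher and 0 lower, and all 31 had a positive log2 fold change (median 0.17). Prosalpha5, a subunit of the core particle, had 208, 200 and 204 CPM in LP and 148, 138 and 151 CPM in HP (0.48, SE 0.07, adjusted p = 1.7e-05). Rpt6, an ATPase of the cap, had 255, 255 and 261 CPM in LP and 195, 194 and 197 CPM in HP (0.39, SE 0.06, adjusted p = 1.5e-05), and Rpn12, a lid subunit, was higher by the same 0.39 (SE 0.06). The summed level of the list was 7160 to 7330 CPM in LP and 6310 to 6410 CPM in HP. Leaving out 1 library left 15 to 21 called, with the lowest counts, 15 and 16, without HP replicate 2 and without LP replicate 1, and 0 lower in each such fit. Genes of the endoplasmic reticulum stress response had 7 of 19 higher and 0 lower, with Pdi, a disulfide isomerase, at 0.44 (SE 0.07) and ERp60 at 0.30 (SE 0.05). Called were 77.4% of proteasome and 36.8% of endoplasmic reticulum stress genes, against 35.1% of all genes.

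Transcripts of the mitochondrial genome were higher in LP, 8 of 14 called and 0 lower (median 0.38). mt:ND1, a subunit of complex I, had 526, 463 and 448 CPM in LP and 173, 194 and 189 CPM in HP (log2 fold change 1.37, SE 0.16, adjusted p = 1.2e-05). mt:ND3 had 246, 223 and 215 CPM in LP and 127, 138 and 126 CPM in HP (0.81, SE 0.11, adjusted p = 2.4e-05). The list summed to 56200 to 59400 CPM in LP and 46200 to 49100 CPM in HP. Each LP library was above each HP library. Nuclear genes of oxidative phosphorylation had 19 of 61 higher and 2 lower (median 0.10; 12 higher without HP replicate 3), and 1 of the lower pair was ND-B14 (2R, 10897144 to 10897885), a complex I subunit, at 55.6, 60.0 and 61.7 CPM in LP and 139, 135 and 133 CPM in HP (−1.20, SE 0.09, adjusted p = 1.2e-09). Called were 57.1% of mitochondrial genome transcripts and 34.4% of these nuclear genes, against 35.1% of all genes.

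Of 84 cytosolic ribosomal protein genes tested, 8 were higher in LP and 6 lower (median 0.02). These counts depended on the fit: with only the 6 reproductive libraries, 30 were higher and 21 lower, and without 1 library 4 or 5 were called in each direction, 4 higher without LP replicate 3 or HP replicate 1. RpL22 (X, 762560 to 765130) stood apart, at 269, 281 and 339 CPM in LP and 2080, 2100 and 2127 CPM in HP (log2 fold change −2.83, SE 0.39, adjusted p = 0.00013). RpL23A had 2663, 2698 and 2824 CPM in LP and 4480, 4542 and 4499 CPM in HP (−0.72, SE 0.10, adjusted p = 2.4e-05). The minor gene RpS10a was higher in LP, at 3.09 to 4.44 CPM against 1.20 to 1.65 CPM in HP (1.30, SE 0.30, adjusted p = 0.002). Translation factors had 2 of 44 higher and 12 lower (median −0.06; 7 lower without HP replicate 2), the lowest p being that of eIF5B (−0.45, SE 0.06, adjusted p = 2.7e-06). Called were 16.7% of cytosolic ribosomal protein genes and 31.8% of translation factors, against 35.1% of all genes.

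Muscle markers were lower in LP. Of 23 sheath muscle genes tested 9 were lower and 1 higher (43.5% called against 35.1% of all genes, median −0.39). The list summed to 1450 to 1890 CPM in LP and 2000 to 2130 CPM in HP. Mf (3R), a myofilament protein, had 50.7, 75.3 and 63.9 CPM in LP and 98.2, 93.2 and 85.5 CPM in HP (log2 fold change −0.54, SE 0.12, adjusted p = 0.0014), and Strn-Mlck, a myosin light chain kinase, was lower by 0.80 (SE 0.17). LP replicate 1 was lowest in both genes. The higher gene was TpnC41C, a troponin C, at 0.779 to 1.07 CPM in LP and at most 0.163 CPM in HP (3.10, SE 0.65, adjusted p = 0.00093). The number called lower was 5 without LP replicate 1, 6 without LP replicate 3, HP replicate 1 or HP replicate 2, and 15 without LP replicate 2. Of 10 haemocyte markers tested 1 was higher and 2 lower. Each fit without 1 library called 1 lower, with vkg no longer called, and the higher gene was called without LP replicate 2 but in no other such fit. With only the 6 reproductive libraries 0 were higher and 5 lower. Lower in LP was PPO2, a prophenoloxidase of crystal cells, with 0.0599 to 0.153 CPM in LP and 1.96 to 2.57 CPM in HP (−4.29, SE 0.48, adjusted p = 1.7e-06). That list summed to 1770 to 1840 CPM in LP and 2130 to 2390 CPM in HP, and the collagen vkg, which other cells also make, made up 549 to 574 CPM of it in LP and 696 to 776 CPM in HP. The part of these cells in the gene groups above was not tested.

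**Figure D4:**
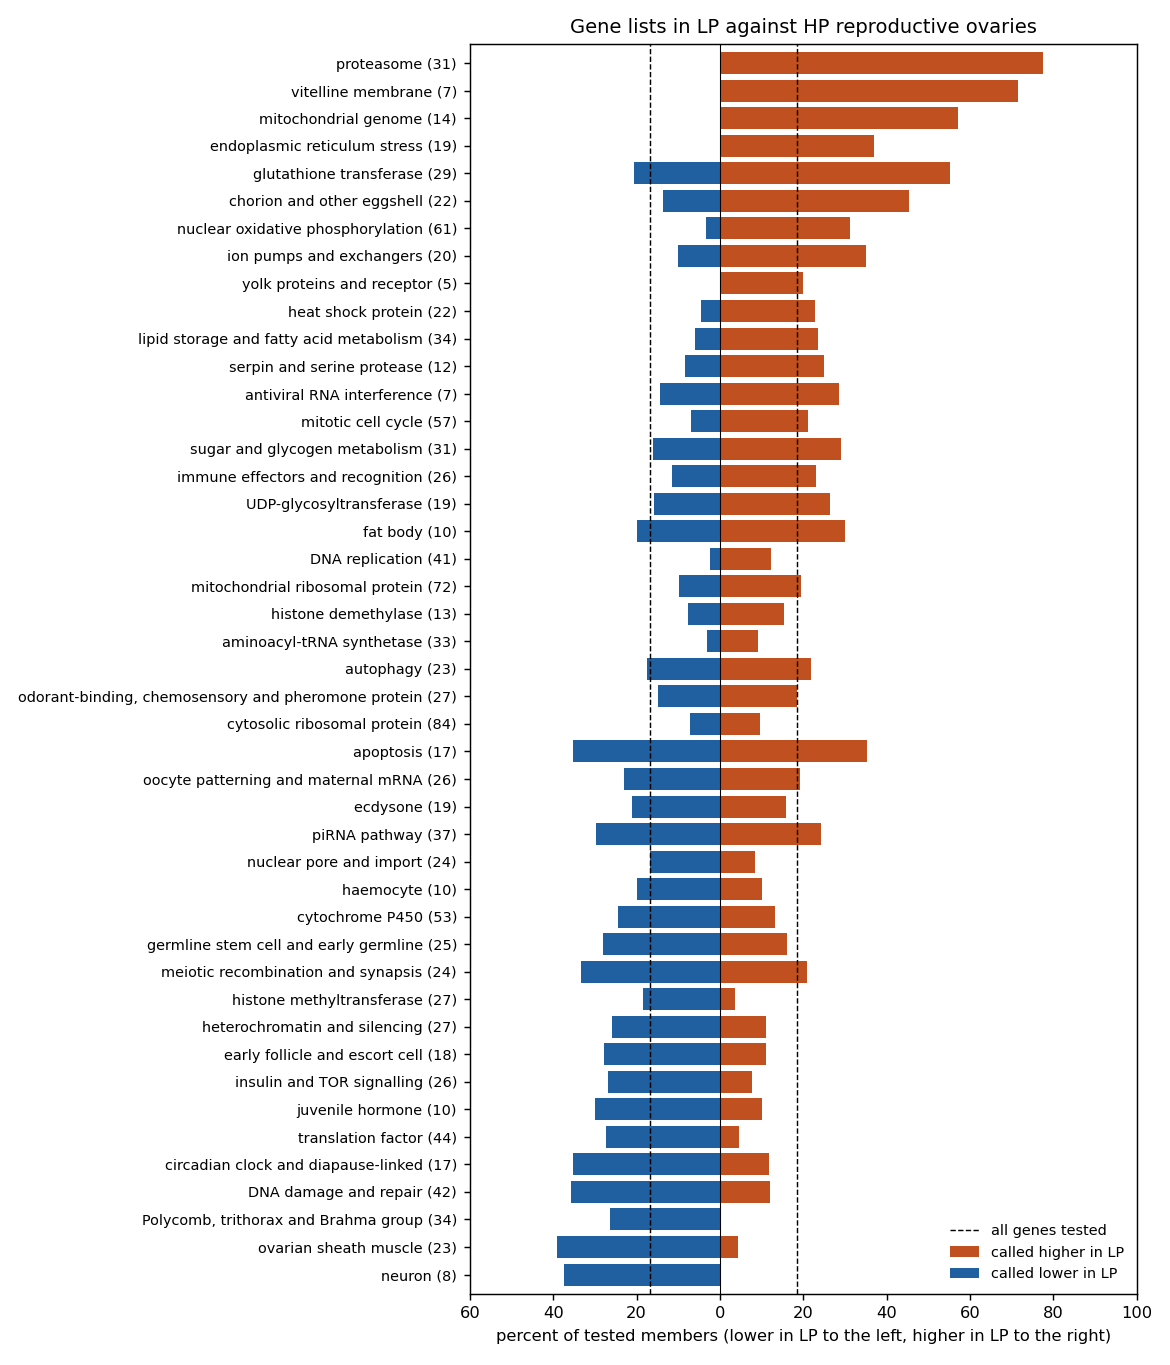
Percent of the tested members of each gene list (number tested in brackets, lists with at least 5) that were called higher in LP (bars to the right) or lower in LP (bars to the left) in reproductive ovaries. Dashed lines mark the 18.4% and 16.7% of all tested genes; proteasome genes lie furthest right with 24 of 31 higher, and sheath muscle furthest left with 9 of 23 lower.

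Of 17 clock and diapause-linked genes 2 were higher (1 in each fit without 1 library but that without HP replicate 3) and 6 lower (47.1% called against 35.1% of all genes, median −0.15). The clock gene tim, whose alleles are known to affect diapause in flies, averaged 77.2 ± 5.83 CPM in LP and 97.3 ± 10.8 CPM in HP (SD, n = 3 each) and missed the threshold (log2 fold change −0.33, SE 0.14, adjusted p = 0.086). The photoperiodic coactivator eya had 55.8, 63.7 and 55.5 CPM in LP and 71.2, 84.6 and 76.2 CPM in HP (−0.41, SE 0.12, adjusted p = 0.015), and the RNA-binding protein cpo, with diapause-linked variants in natural populations, had 34.7, 29.8 and 33.0 CPM in LP and 24.3, 26 and 27.7 CPM in HP (0.32, SE 0.11, adjusted p = 0.03). Leaving out 1 library cost eya its call in 3 of 6 fits and cpo in 4. The clock regulators Pdp1 (−0.48, SE 0.08) and cwo (−0.46, SE 0.08) were lower in LP in every library.

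Insulin and TOR signalling, which couples nutrition to egg growth, had 2 of 26 genes higher and 7 lower (34.6% called, near the 35.1% of all genes, median −0.17). The transcription factor foxo had 129, 108 and 111 CPM in LP and 147, 152 and 159 CPM in HP (log2 fold change −0.40, SE 0.07, adjusted p = 0.00027), and the adaptor Lnk averaged 76.8 ± 2.41 CPM in LP and 104 ± 4.54 CPM in HP (SD, n = 3 each; −0.44, SE 0.06, edgeR adjusted p = 1.8e-05). The lower count was 4 without LP replicate 2, LP replicate 3, HP replicate 2 or HP replicate 3. Juvenile hormone genes had 1 of 10 higher and 3 lower, and ecdysone genes 3 of 19 higher and 4 lower, near the shares over all genes. The juvenile hormone receptor gene Met was lower in LP (−0.49, SE 0.08, adjusted p = 4.1e-05), as were tai, a coactivator of nuclear receptors (−0.49, SE 0.11), and the ecdysone-induced receptor gene Eip75B (−0.64, SE 0.13). Higher in LP was Oatp74D, the ecdysone importer, at 25.9 to 31.0 CPM in LP and 14.1 to 15.7 CPM in HP (0.93, SE 0.14, adjusted p = 3.4e-05).

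The line difference of the reproductive ovaries was then set beside that of diapause and of age-control ovaries, which used other libraries of the same lines in the same fit. LP differed from HP in 2947 genes in diapause (32.6%) and in 3782 age-control genes (41.9%). Called in reproductive and diapause ovaries in the same direction were 2245 genes, 70.7% of the reproductive and 76.2% of the diapause calls, and 2 were called in opposite directions. For the age controls 1771 genes went the same way, 55.8% of the reproductive and 46.8% of the age-control calls, and 145 went opposite ways. In all 3 states 1367 genes were called in 1 direction, 711 higher and 656 lower in LP. In these were SkpC, GstZ1, Cyp6a23, Ugt35A1 and ItgaPS4 on the higher side, and Dscam4, pst, Amt, Cyp6a9 and Blm on the lower side.

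The difference between the states was tested itself as an interaction. Between reproductive and diapause ovaries 0 genes (0%) passed edgeR's test, and 6 were called by DESeq2. The 2 genes called in opposite directions in these states did not pass edgeR's test either, so 0 calls do not show equal line differences. An unadjusted edgeR p under 0.05 was found for 366 genes, fewer than uniform p-values would give. Between reproductive and age-control ovaries 1501 genes (16.6%) passed, 876 with a more positive (9.69%) and 625 with a more negative (6.92%) line difference in reproductive ovaries, and 774 of them were also called in the reproductive comparison. The age controls differ from the reproductive flies in temperature and in state, and the effects of temperature, age and state cannot be told apart here.

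Arc1 (2R, 14357927 to 14360297), a capsid-forming homologue of mammalian Arc, had 69.1, 69.8 and 69.0 CPM in LP and 95.1, 79.9 and 92.0 CPM in HP reproductive ovaries (log2 fold change −0.36, SE 0.11, adjusted p = 0.019), against 124, 154 and 99.2 CPM in LP and 12.0, 12.4 and 11.7 CPM in HP age controls (3.39, SE 0.13). LP was below HP in reproductive ovaries, a call lost in 3 of the 6 fits without 1 library, and above HP in age controls (difference −3.75, SE 0.17, adjusted p = 8.8e-11). CG9436 (2R, 6757601 to 6758903) had 46.4, 47.5 and 49.8 CPM in LP and 51.3, 50.0 and 53.2 CPM in HP reproductive ovaries and was not called (−0.10, SE 0.08, adjusted p = 0.34), against 8.79, 7.75 and 6.24 CPM in LP and 52.0, 57.4 and 53.9 CPM in HP age controls (−2.85, SE 0.09). The low values of CG9436 were those of the LP age controls. CkIIalpha-i3 had 8.63, 8.22 and 8.97 CPM in LP and 26, 26.8 and 26.6 CPM in HP reproductive ovaries (−1.62, SE 0.10, adjusted p = 6.6e-11), against 22.6, 23.8 and 22.4 CPM in LP and 16.3, 19.0 and 18.6 CPM in HP age controls (0.35, SE 0.09).

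The lists differed in how their line difference varied between the states. Cytosolic ribosomal protein genes, with 8 higher and 6 lower in reproductive ovaries, had 0 higher and 81 lower of 84 in LP age controls (median −0.50), and the interaction passed for 66, all in 1 direction. Sheath muscle markers had 9 of 23 lower in LP reproductive ovaries and 20 higher in LP age controls (median 0.92), and the interaction passed for 1 upward and 18 downward. Mhc had 84.2, 81.6 and 123 CPM in LP and 44.2, 31.1 and 52.2 CPM in HP age controls, so that LP was the higher line there and the lower line in reproductive ovaries (difference −1.80, SE 0.30, adjusted p = 0.0012). Proteasome genes were higher in LP in each state, 24, 19 and 25 of 31 in reproductive, diapause and age-control ovaries with 0 lower in each, and mitochondrial genome transcripts had 0 interaction calls in the comparison with the age controls.

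**Figure D5:**
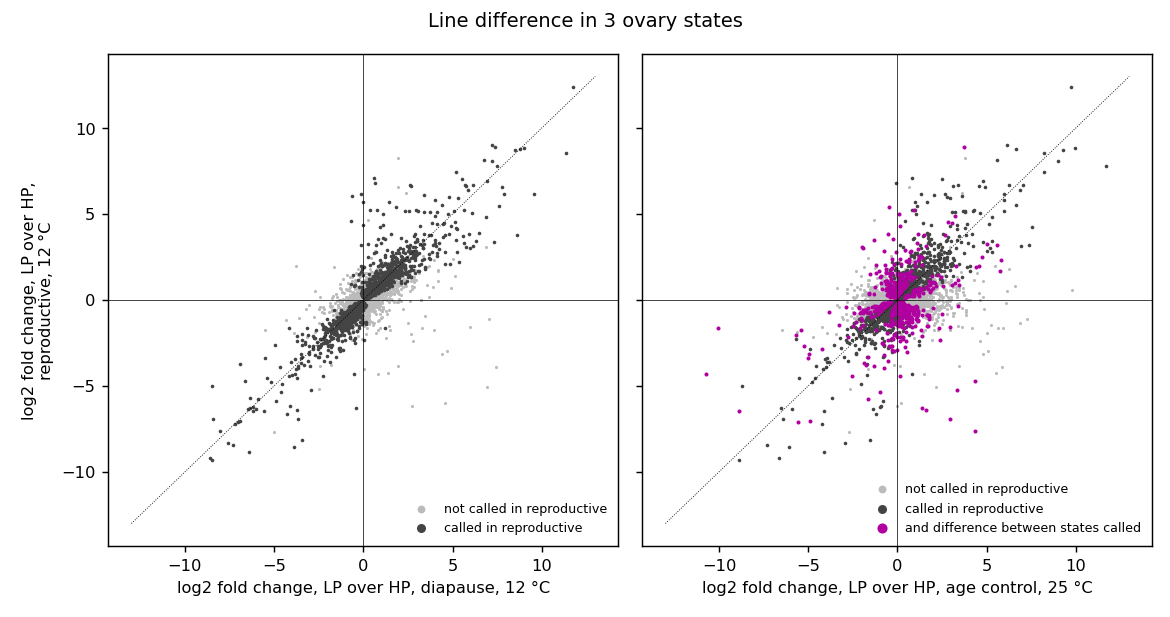
Log2 fold change, LP over HP, of each tested gene in reproductive ovaries (y axis) against that in diapause ovaries (left panel) and in age-control ovaries (right panel), with dark points for genes called in reproductive ovaries. Magenta points mark called genes whose line difference also differed between reproductive and age-control ovaries, 774 in number; between reproductive and diapause ovaries 0 genes passed that test.

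Called genes lay along the whole genome. The share called was 36.8% on X, 37.0% on 2L, 35.3% on 2R, 35.1% on 3L, 32.5% on 3R and 28.4% of the 88 genes on 4. In 117 windows of 1 Mb with at least 20 tested genes, it ran from 18.8% (12 of 64 genes, 3R, 16000001 to 17000000) to 49.0% (25 of 51 genes, 2L, 12000001 to 13000000), with a median of 35.3%. The X differed from the other arms in direction: 225 of its called genes were higher in LP and 363 lower, so 38.3% were higher, against 51.4% to 57.7% on the other arms. The share on X was 40.3% in diapause, against 52.1% to 58.3% on 2L, 2R, 3L and 3R and 76.2% of only 21 called genes on 4. In age controls it was 41.7% on X, against 46.7% to 50.6% on the other arms. In reproductive ovaries it was 49.4% among the X genes that passed a test against a 1.5-fold change. The share on the other arms was not computed at that test, so this value does not show whether X differed from them there. Neighbouring genes of an inbred line share a haplotype and are not independent, and no test was made.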

How the data were processed

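Per the labels' protocols, ovary RNA was isolated with a mirVana kit, and poly-A libraries were prepared by the NEBNext Ultra II Directional protocol. Tools named in the submitters' processing notes are STAR, Trimmomatic, DESeq2 and featureCounts; their versions and settings (genome build, strand, multiply mapped reads) are not given. Overlapping, antisense and near-identical genes are therefore uncertain, and reads lost to sequence that differs between the lines were not checked. The authors deposited raw read counts per gene for 17611 genes, neither normalised nor pooled; 2995 had no count. Symbols were matched by identifier to Ensembl BDGP6.54 (17556 matched, 17540 with equal coordinates); coordinates are the count table's own, from 1.

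All 18 libraries (14352846 to 21343992 counts) in 6 groups entered 1 fit, with TMM scaling, no covariate and the 9037 genes kept by filterByExpr. The test was edgeR 4.0.16's robust quasi-likelihood test (R 4.3.3, limma 3.58.1), with 12 residual degrees of freedom and a common BCV of 0.0973, and was tested on simulated data first. Adjusted p-values are Benjamini-Hochberg over the 9037 genes, called under 0.05, and come from edgeR where no tool is named. Fold changes are log2, LP over HP. The standard error (SE) printed with them is the absolute log2 fold change over the square root of the test's F statistic. It therefore carries the same information as the p-value, and it is no measure of precision for genes near 0 counts in 1 line. Counting intervals and the floor of 3 counts cover counting error only.

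Named genes were the 10 largest increases and decreases among called genes of known name with at least 5 CPM and no overlap, up to 8 near-absent genes for each line, up to 3 called members with the smallest p in each of 46 gene lists, 5 genes of each interaction, and Yp1, Yp2, Yp3, vas, bam, nanos, cpo, tim, eya and foxo; others are marked. Of the list symbols, 9 were not found. The members, lists and tests were chosen with earlier results of these data known. Alternatives were library totals, DESeq2 1.42.0, no filter, only the 6 libraries, a replicate block, a test against a 1.5-fold change and leaving out each library; 2 more were chosen after seeing the data.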

Additional observations from a re-analysis of the deposited data

Results flagged for a closer look

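The line difference differed between reproductive ovaries at 12 °C and age-control ovaries at 25 °C in 1501 genes by edgeR's interaction test, and 51 of these are named here. Values are differences of log2 fold changes (LP over HP), reproductive minus age control; each adjusted p was under 0.05.

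Among genes with the largest line differences, the value was 1.66 for ItgaPS4, 1.63 for tipE, 1.40 for Cyp6a23 and 5.16 for CG11052, where LP exceeded HP by more in reproductive ovaries. It was −1.92 for pst, −2.50 for Tsf1, −1.63 for Cyp12e1 and −2.15 for CG11825, where LP fell further below HP in reproductive ovaries. For Dscam4 it was 2.44 and for CanB 1.64, where LP lay further below HP in age controls. CG6409 had −7.66, a value that rests on HP reproductive replicate 3. CG11052 had 1 count in HP reproductive ovaries, CG11825 was near absent in LP reproductive ovaries, and CanB stood at 0.0921 to 0.367 CPM in LP age controls. The size of these fitted values depends on few counts and on the prior count.

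Of the genes chosen for this test, Arc1 had −3.75, CkIIalpha-i3 −1.97, CG9436 2.74 and CG11454 1.96. Immune and blood cell genes differed in opposite ways. The antimicrobial peptide gene Dro had −3.51, with LP below HP in reproductive ovaries (−2.12) and above it in age controls (1.39). PPO2 had 6.42, with all LP age-control libraries at 0 CPM, so that this fitted value depends on the prior count. Obp99a had 2.80 and changed sign between the states (1.57 in reproductive ovaries, −1.23 in age controls).

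In the germline and ovary lists, the value was 0.38 for vas, 0.64 for bam, 0.40 for pgc, 1.05 for BoYb and 0.49 for Hen1, all more positive in reproductive ovaries. The follicle and escort cell gene Wnt4 had 1.49 and the chorion gene Cp19 had 4.93. Of 23 muscle genes the difference passed for 18 in the negative and 1 in the positive direction. Mf had −1.04, and the positive gene, TpnC41C, had 5.08; TpnC41C was at or under 1.07 CPM in each library of these groups.

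Of 17 genes of the clock and diapause list the difference passed for 5, all of them more positive in reproductive ovaries, among them dao at 1.68, eya at 0.85, cwo at 0.40 and Pdp1 at 0.37. Chromatin genes had −0.51 (Bap111), −0.27 (CoRest) and 0.56 (Kdm3). Genes of division and repair had −0.53 (cana) and −1.15 (Fancl), and fog, which stands in the mitotic list but is folded gastrulation, a signal for cell shape, had 0.53.

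Transport and metabolism gave −2.31 for NKCC, 0.80 for nrv3, 0.45 for Nhe3, −0.40 for Hex-A and 0.43 for LpR1. Glutathione transferases gave 0.35 for GstE6 and 0.46 for GstD1. Genes of mitochondria and translation gave 0.69 for ND-15, 0.46 for mRpL52, 0.35 for mRpS2 and 0.21 for LeuRS. Stress and death genes gave −0.28 for Hsc70-3, 0.40 for Atg101 and 0.96 for Strica.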

How the results depend on the processing

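The reproductive count of 3174 genes was 3110 with library totals, 3313 with DESeq2, 2732 without the filter, 3938 with only the 6 libraries, 3174 without eggshell and yolk genes in the library sizes, and 3129 without LP diapause replicate 2, the last pair chosen after seeing the data. Leaving out 1 library gave 2292 to 2717. Against a 1.5-fold change 525 genes passed in reproductive, 554 in diapause and 803 in age-control ovaries, 266 differed between reproductive and age-control ovaries, and 407 and 261 were shared in direction with diapause and with age controls. Between reproductive and diapause ovaries DESeq2 called 6 genes, and each edgeR alternative 0. The log2 fold change of CG31681 ran from −8.72 to 2.71 over the fits without 1 library, the last without HP replicate 3. Of the 162 named genes called, 145 kept their call when any 1 library was left out. The replicate block gave 3179 genes and cost Nplp2, CG6409 and CG31681 their calls. Same-numbered libraries of the lines correlated at −0.0549, 0.0685 and 0.0911 in their deviations, and libraries of unlike number at −0.176 to 0.144. With 3 libraries per line, these values cannot show whether the numbers pair them. On the second principal component (10.7% of the variance) LP replicate 3 stood at −11.63 and HP replicate 3 at −12.52, while every other library was positive. DESeq2 called Yp3 (adjusted p = 0.045) and tim (adjusted p = 0.042), and the fit of the 6 libraries called Yp2 (adjusted p = 0.012), Yp3 (adjusted p = 0.043) and tim (adjusted p = 0.018); that fit cost Cp16 and Cp18 their calls (adjusted p = 0.085 and 0.1) and left 5 of the 10 eggshell genes called higher. List medians moved by more than the library spread in 7 of 46 lists without the filter and in 4 to 10 when 1 library was left out, 10 without LP replicate 1. That of cytochrome P450 was 0.01 without the filter and without LP replicate 1, and 0.04 without HP replicate 2. Scaling moved the median of all genes by at most 0.006. Depth limits genes near 0 counts, where a few reads set the ratio.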

Other observations

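Of 20 ion pumps and exchangers tested 7 were higher in LP and 2 lower (45.0% called against 35.1% of all genes, median 0.19). nrv3 (2L, 21380000 to 21393319), a beta subunit of the sodium-potassium pump, had 297, 310 and 320 CPM in LP and 116, 108 and 142 CPM in HP (log2 fold change 1.34, SE 0.09, adjusted p = 1.8e-09). NKCC, a sodium, potassium and chloride cotransporter, had 2.64, 5.26 and 4.33 CPM in LP and 26.4, 27.3 and 24.8 CPM in HP (−2.67, SE 0.18, adjusted p = 9.6e-10). The exchanger Nhe3 was higher in LP (0.60, SE 0.05). The lines did not overlap in these genes.

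Apoptosis genes were called in both directions, 6 higher and 6 lower of 17 (70.6% called, and 39.1% of autophagy genes, against 35.1% of all genes). The lower count fell to 4 without LP replicate 1, LP replicate 3, HP replicate 1 or HP replicate 2 and to 2 without LP replicate 2, while the higher count was 6 in each such fit. Buffy, a Bcl-2 family member, had 11.9, 11.7 and 11.1 CPM in LP and 4.63, 4.60 and 4.26 CPM in HP (log2 fold change 1.36, SE 0.15, adjusted p = 7.9e-07), and the caspase gene Strica was higher in LP too (1.01, SE 0.13). The caspase gene Dcp-1, which acts in death of nurse cells and starved egg chambers, was lower (−0.42, SE 0.06, adjusted p = 2.9e-05). Autophagy had 5 of 23 higher and 4 lower (2 higher without LP replicate 3, 3 without HP replicate 1 or 2; 2 lower without LP replicate 2 or HP replicate 3), with Atg7 at 33.6 to 37.8 CPM in LP and 21.0 to 25.0 CPM in HP (0.68, SE 0.09).

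Sugar and glycogen metabolism had 9 of 31 higher and 5 lower (2 lower without LP replicate 2, 3 without HP replicate 1), with Gpdh1, a glycerol-phosphate dehydrogenase, at 213 ± 4.8 CPM in LP and 125 ± 3.47 CPM in HP (SD, n = 3 each; log2 fold change 0.76, SE 0.07, edgeR adjusted p = 4.3e-08), and the hexokinase gene Hex-A at 235 to 282 CPM in LP and 389 to 425 CPM in HP (−0.71, SE 0.07, adjusted p = 1.2e-07). Lipid genes had 8 of 34 higher and 2 lower (4 higher without LP replicate 1 or HP replicate 1, 5 without LP replicate 3 or HP replicate 3; 1 lower without LP replicate 2, LP replicate 3 or HP replicate 3), with the droplet protein Lsd-1 at 0.77 (SE 0.16) and the lipophorin receptor LpR1 at 0.59 (SE 0.07). Immune genes had 6 of 26 higher and 3 lower (2 higher without LP replicate 3, HP replicate 2 or HP replicate 3, 3 without HP replicate 1). The Toll ligand spz was higher (0.60, SE 0.08), and Dro (−2.12, SE 0.34) and PGRP-SB1 (−1.60, SE 0.32) were lower, both under 6 CPM. Among heat shock proteins 5 of 22 were higher (2 without LP replicate 3) and 1 lower, the abundant cognate Hsc70-4, at 7755 to 8074 CPM in LP and 10299 to 10694 CPM in HP (−0.41, SE 0.08, adjusted p = 0.00034). Called were 45.2% of sugar, 29.4% of lipid, 34.6% of immune and 27.3% of heat shock genes, against 35.1% of all genes.

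Mitochondrial ribosomal proteins had 14 of 72 higher and 7 lower (9 higher without LP replicate 2, 8 without LP replicate 3; 4 lower without LP replicate 2, HP replicate 1 or HP replicate 2, 3 without LP replicate 3, 2 without HP replicate 3), with mRpL52 at 0.84 (SE 0.10) and mRpL14 at −0.57 (SE 0.08). Odorant-binding and chemosensory genes, most of them untested at these depths, had 5 of 27 higher and 4 lower, with Obp99a at 6.41 to 7.63 CPM in LP and 2.29 to 2.42 CPM in HP (1.57, SE 0.19). Neuronal markers had 0 of 8 higher and 3 lower, with the calcium channel gene cac at 4.55 to 5.62 CPM in LP and 7.87 to 9.01 CPM in HP (−0.73, SE 0.15). Nuclear pore and import genes had 2 of 24 higher and 4 lower, with Nup58 at −0.37 (SE 0.06). In these 4 lists, in the order given, 29.2%, 33.3%, 37.5% and 25.0% were called, against 35.1% of all genes. Non-coding RNA genes were called in 89 of 305 (29.2%), 63 higher and 26 lower in LP.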
